A study of Homo sapiens with 2 samples.

Results

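The interferon-related transcription factor IRF1 had 7 ChIP-seq summits in RUNX1, 5 of them in exons and 2 in introns. These summits were taken from a deposited list of 1986 summits made by this assay, in which DNA bound by the factor is pulled down with an antibody and sequenced. The cells were NB4, a human cell line from acute promyelocytic leukemia, and both groups of the study carry its PML-RARA fusion. The study held 1 library from cells given all-trans retinoic acid for 4 hours and 1 library from control cells given the solvent DMSO. By its name the list belongs to the retinoic acid library. The control library's own values were not used, so no gain or loss under treatment was measured. What the summits were called against is unknown. Had it been the control library, they would be sites enriched over control cells. With 1 library there was no spread between replicates and no test was made.

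The members were chosen by position and annotation: all summits on chromosome 21 from 34.0 to 36.0 Mb (hg38) whose annotation or assigned gene is RUNX1, together with any assigned to the non-coding RNA gene LINC01426. Of 11 summits in that window, 7 met this rule and 4 belonged to neighbouring genes. The deposited class of a summit (exon or intron) is part of the rule, and RUNX1 was picked because its exon summits had been seen in these data. The split into classes and the scores are therefore descriptions. Each summit is a single-base position to which the authors gave a peak score. The scale of that score is not given in the sources used here, and it serves only to rank summits within the list.

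RUNX1 encodes the DNA-binding subunit of core-binding factor, which pairs with the CBFB protein and is required for the formation of blood stem cells. In myeloid cells it acts with factors such as PU.1 and C/EBP alpha on genes of granulocyte and monocyte development, and it is often mutated or rearranged in leukemia. The gene is read from a distal and a proximal promoter. The transcript NM_001754 starts at the distal one, and NM_001122607, which encodes a short isoform without the activation domain, starts at the proximal one. IRF1 binds interferon-stimulated response elements, in which GAAA cores are repeated.

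The proximal promoter is shown because the summits of RUNX1 lie on both sides of it and none inside it. The sequence is the 250 bases before the start site on the minus strand of GRCh38.p14, chr21:34888700-34888949, from RefSeq, with GAAA or its reverse complement TTTC in capitals.
RUNX1 proximal promoter: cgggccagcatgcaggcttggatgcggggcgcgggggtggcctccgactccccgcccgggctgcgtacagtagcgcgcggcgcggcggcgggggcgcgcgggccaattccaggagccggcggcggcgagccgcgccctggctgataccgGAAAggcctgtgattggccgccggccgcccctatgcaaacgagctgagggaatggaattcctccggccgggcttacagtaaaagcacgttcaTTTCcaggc
Both strands were searched for 3 motifs. The single core GAAA occurred 2 times, which is common, since 82.6% of the 35116 RefSeq promoter windows of this length hold it. The paired core GAAANNGAAA, in which N is any base, was not found here and occurred in 3.02% of all windows. A summit lay inside 257 of the windows (0.732%), and 32.3% of those held the paired core. The RUNX motif TGTGGT was not found in the RUNX1 window either, and 11.0% of all windows hold it. The full window of 300 bases, with 50 after the start, contained 0 summits. The nearest summits were 1689 bp from its low end, in an exon, and 1310 bp from its high end, in an intron.

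The 5 exon summits followed the order of transcription from the proximal promoter to the last exon. RUNX1 lies on the minus strand (chromosome 21, 34787801 to 35049302), so falling positions run downstream. The first summit, at position 34886961 in exon 1 of 5 of NM_001122607, had a score of 85.1 and lay 1729 bp downstream of the nearest transcription start site (TSS). In exon 2 of 5 the summit at position 34880691 had a score of 23.2, the lowest of the exon summits, at 7999 bp from the TSS. It also lies within the span of the antisense gene RUNX1-AS1 (34836313 to 34885052). The summit at position 34834500, in exon 4 of 5, had a score of 70.5 and lay 54190 bp from the TSS.

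The remaining exon summits were annotated on NM_001754. Exon 8 of 9 held a summit at position 34799397 with a score of 32.0. In exon 9 of 9, the last, the summit at position 34792453 had a score of 92.8, the highest in the gene. For both, the assigned gene was LINC01426, because its TSS was the nearest, at 53572 and 46628 bp. LINC01426 itself spans 34745825 to 34784886, and neither summit lies in it. Counting by assigned gene alone would thus credit RUNX1 with 3 exon summits.

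Consecutive exon summits were 6270, 46191, 35103 and 6944 bp apart, and together they covered 94.5 kb. The detailed annotation holds 1 label per summit and names the exon for each of the 5. It therefore cannot tell whether any of them also lies in a repeat or a CpG island. Exon 3 and exon 5 of NM_001122607 held no summit under that name. The authors' annotation names 1 transcript per summit, so exon numbers of the 2 transcripts cannot be put on 1 scale from this list.

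Both intron summits lay upstream of the proximal start and scored lower than any of the exon summits. The summit at position 34890259, in intron 3 of 8 of NM_001754, had a score of 13.0 and lay 1569 bp upstream of the proximal TSS, in a CpG island. In intron 2 of 8, the summit at position 34934181 had a score of 20.0 and lay 45491 bp upstream. From there to the distal end of the gene, a stretch of 115 kb, no summit was listed. No summit was classed as an intron between the proximal start and the last exon. The samples of the study include no input library, and reads at the exon borders were not used here. Whether the exon summits mark IRF1 bound to chromatin at RUNX1 was therefore not tested, and their scores are given as listed.

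**Figure D1:**
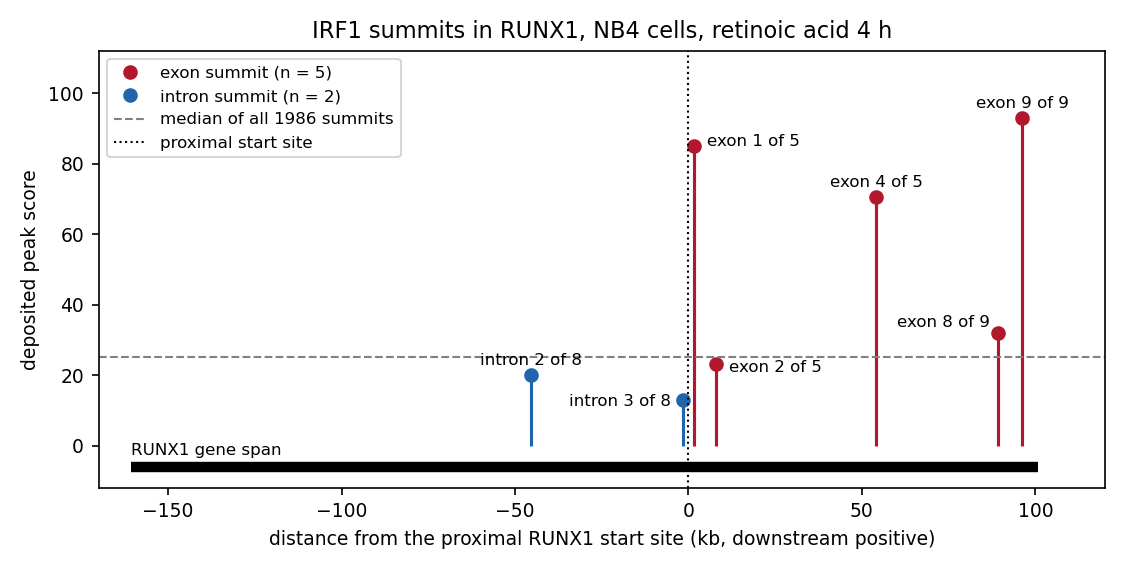
Deposited peak score of each RUNX1 summit (vertical axis) against its distance from the proximal start site in kb (horizontal axis, downstream positive), with the gene span as a black bar and exon and intron numbers as annotated on NM_001122607 (of 5) or NM_001754 (of 9, introns of 8). The 5 exon summits lie downstream of the start and score 23.2 to 92.8, and the 2 intron summits lie upstream and score 13.0 and 20.0.

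Exon and intron scores in RUNX1 did not overlap, with exon scores from 23.2 to 92.8 and a median of 70.5, against 13.0 and 20.0 in introns (median 16.5). The difference of the medians was 54.0 over 5 and 2 summits. Since the scale of the score is unknown, this gives the order of the medians and not a size of effect. Of the exon summits, 4 were above the median of the whole list (25.2), and of the intron summits 0 were. All exon summits lay downstream of the proximal start and both intron summits upstream of it. Class and position therefore cannot be told apart in this gene. Across the rest of the list, pooled over genes, the class medians were close. The other 25 exon summits had a median of 25.2 and the other 696 intron summits one of 24.8. The share above 25.2 was 48.0% of those exon summits and 48.4% of those intron summits.

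Within the whole list, the RUNX1 exon summits ranged from the middle to near the top. The exon 9 summit ranked 191 of 1986, the exon 1 summit 228 and the exon 4 summit 286. Those in exon 8 and exon 2 ranked 750 and 1072. Of the intron summits, that in intron 2 ranked 1306 and that in intron 3 ranked 1847, with 6.95% of all summits below it. Only 3 of the other 25 exon summits reached the score of the exon 4 summit. The highest of them, in the DNA polymerase gene POLQ, had a score of 141; this gene was picked after its value was seen.

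**Figure D2:**
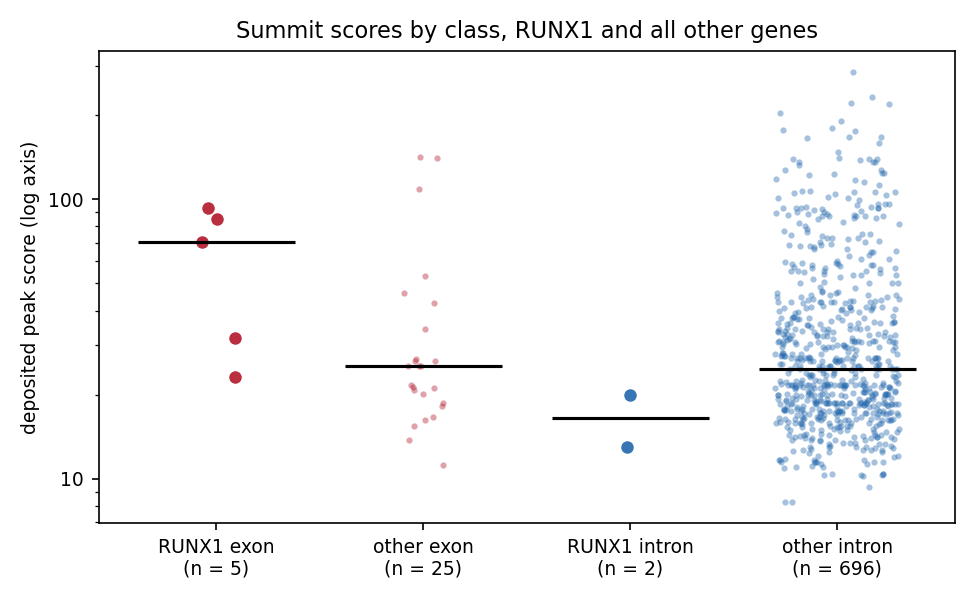
Deposited peak score (log axis) of exon and intron summits in RUNX1 and in all other genes, 1 point per summit, with the median as a black line. The RUNX1 exon median of 70.5 lies above the 25.2 of other exons, and the RUNX1 intron median of 16.5 lies below the 24.8 of other introns.

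In RUNX1, 5 of 7 exon and intron summits were in exons (71.4%, exact 95% interval 29.0 to 96.3), against 25 of 721 in all other genes (3.47%, 2.26 to 5.08). Over the whole list the share was 4.12%. The size of this contrast depends on a narrow exon class: with UTRs, termination sites and non-coding exons counted as exons, the share outside RUNX1 was 19.4%, and that of RUNX1 was still 71.4%. The class is part of the rule, so these shares describe the selection. The intervals would cover counting error only, had RUNX1 not been picked for its exon summits. Summits of 1 gene and 1 library are also not independent, so the intervals are no test of the contrast. RUNX1 held 16.7% of the 30 exon summits of the list and 0.287% of its 698 intron summits. Of the 6 exon summits on chromosome 21, 5 were in RUNX1, and the other lay in DOP1B with a score of 26.4.

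Exon summits were otherwise spread 1 to a gene. By the gene of the annotated transcript they fell in 25 genes, of which 23 held 1 each, RARA held 2 and RUNX1 held 5. RARA encodes retinoic acid receptor alpha, the drug's receptor and the fusion partner of PML in this line. Its summits, in exon 6 (score 20.7) and exon 7 (42.5) of 9 of NM_001145301, lay at positions 40352461 and 40354415 of chromosome 17. RARA had no intron summit, so there too all summits of the gene were in exons, and the same limit on what they mark applies. As with the LINC01426 rows of RUNX1, both RARA summits were assigned to another gene, RARA-AS1 and GJD3, because its TSS was nearer. In all, 10 of the 30 exon summits had a nearest gene other than the gene they lay in, 2 of them in RUNX1 and 8 elsewhere.

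RUNX1 also held the most exon and intron summits of any gene outside the dense summits on the short arm of chromosome 21. These were set apart after seeing the data. Among them, RNA28SN5 held 28 intron summits and LOC100507412 held 21, both more than RUNX1. Of the 596 genes outside the short-arm summits, 537 had 1, 51 had 2, 7 had 3, and RUNX1 alone had more. The 7 genes with 3 included CALCOCO2, an autophagy receptor gene, with 1 exon and 2 intron summits, and CXXC5 with intron summits only. Counted by gene span instead of annotation, RUNX1 was again highest of 19974 protein-coding genes with 7 summits, followed by GRAMD4 with 6. The GRAMD4 summits differed in layout: all 6 lay within 1531 bp, were classed as intergenic and scored 13.0 to 20.6. Gene length bears on such counts, since the RUNX1 span is 261.5 kb. Among 1396 protein-coding genes of at least 200 kb, 189 had a summit in their span, 5 had 3 or more, and the most in any besides RUNX1 was 4. Per 100 kb, RUNX1 had 2.68 summits, less than GRAMD4 with 5.61 or the shorter CALCOCO2 with 8.77.

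**Figure D3:**
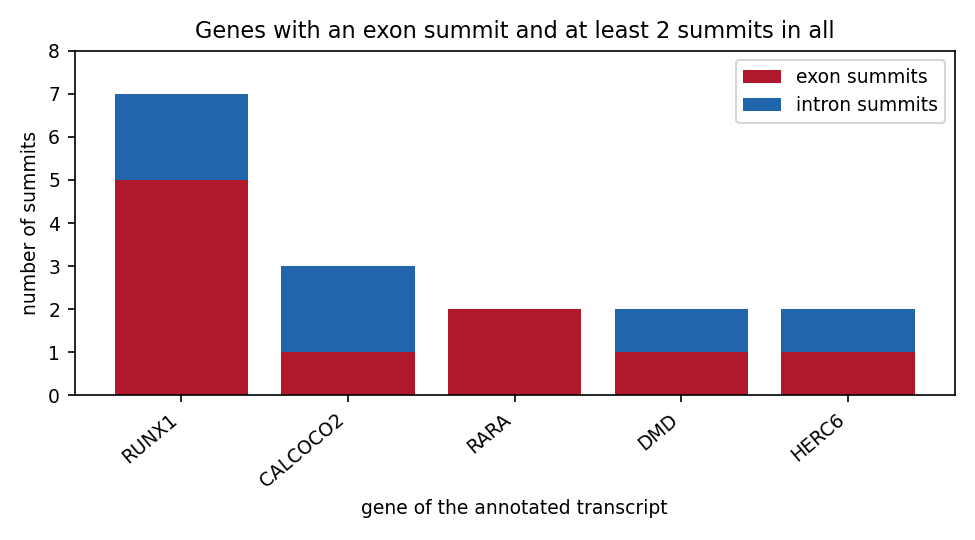
Number of exon (red) and intron (blue) summits, stacked, for each gene that holds an exon summit and at least 2 exon or intron summits in all. RUNX1 has 5 exon and 2 intron summits, RARA has 2 exon summits, and the other genes shown have 1 exon summit each.

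The genes around RUNX1 had single summits with scores from 15.8 to 38.0, none of them in an exon. KCNE2, which encodes a regulatory subunit of potassium channels, was the nearest gene of an intergenic summit at position 34333684 with a score of 26.4, 30340 bp upstream of its TSS. RCAN1, which encodes an inhibitor of calcineurin, was assigned a summit at position 34640380 with a score of 15.8, in a LINE repeat 25238 bp upstream. CLIC6, a chloride intracellular channel gene, was assigned one at position 34649529 with the same score of 15.8, at 19634 bp upstream. The CLIC6 summit was 138 kb from the RUNX1 span. On the other side, an intron summit of the non-coding gene LOC100506403 at position 35529317 had a score of 38.0 and lay 480 kb from RUNX1. It was counted as a neighbour, although the authors' table gives that row the Ensembl identifier of RUNX1.

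At the edges of the window, the outermost summits inside were those of KCNE2 and LOC100506403. The closest outside were an intron summit assigned to LINC00649 at position 33932069 (32.2) and one assigned to CBR1 at position 36079161 (30.0). Neither is near RUNX1, so the limits of the window did not decide which RUNX1 summits were included.

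Genes that work with RUNX1, or that it is known to regulate, had summits at shares near those of all protein-coding genes. Of 34 listed genes, 1 had a summit assigned to it within 10 kb of its TSS (2.94%), against 3.36% of all 19974 protein-coding genes. This was LMO2, a bridging protein of blood progenitor transcription complexes, with a score of 15.3 at 1596 bp upstream of its TSS. At any distance the count was 3 of 34 (8.82%), against 6.38% of all protein-coding genes. The next was MYB, a progenitor transcription factor, with a summit in exon 9 of 15 that scored 21.3. The last was CEBPA, a granulocyte transcription factor and RUNX1 target, with an intergenic summit 34536 bp from its TSS that scored 24.1. All 3 scores were below the list median of 25.2. By role, 0 of 3 RUNX family and partner genes (RUNX2, RUNX3 and CBFB), 2 of 9 factors acting with RUNX1, 0 of 6 coregulators and 1 of 16 targets were the nearest gene of a summit at any distance. SPI1, CSF1R, CSF3R and MPO, known myeloid targets of RUNX1, had none. These shares are near the background, and the list shows nothing particular to RUNX1 partners or targets.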

How the data were processed

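IRF1 ChIP-seq libraries of NB4 cells, 1 per group, were the samples, and 1 summit list was analysed. The submitters' processing notes name Bowtie2 2.2.9, MACS 1.4.2 and hg38. Per the file headers, HOMER (annotatePeaks.pl, hg38) assigned classes and genes to the summits. The peak score is the authors' deposited value. Its scale, the threshold and the background of the calling were not given in the sources used here. Had control cells served as background, summits would be sites enriched over control, and a site without one could still be bound. Read depth is unknown, so no precision from depth can be given. The deposited distances to the TSS and positions are in bases, 1-based.

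Members were found by position, transcript and assigned gene. Transcripts were matched by accession and nearest genes by Entrez number, in the RefSeq table for GRCh38.p14 (1977 of 1986 nearest genes; 716 of 728 exon and intron transcripts), whose spans and promoter sequences were used on the same assembly. Exon limits and the sequences under the summits were not used here. Counts, medians and shares with exact Clopper-Pearson 95% intervals were computed in Python 3.11.15 with pandas 2.3.3 and scipy 1.17.1, checked on simulated data. The members, the genes named (every summit of the window, RARA, and genes of the RUNX1 list with a summit) and the lists were chosen with earlier results of these data known. Alternatives were a score limit, merging of summits under 200 bp apart, omission of LINC01426 rows, the RUNX1 span, a wider exon class and omission of the chromosome 21 short arm. The motifs searched and the counts per gene were chosen after seeing the data.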

Additional observations from a re-analysis of the deposited data

How the results depend on the processing

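Leaving out replicates was not possible with a single library in each group. No paired analysis was possible either, because the list held no values of the control library. Limiting the list to the 998 summits at or above its median score left 4 RUNX1 summits, of which 4 were exon and 0 intron summits. The exon share was then 100% and the exon median 77.8, and no intron median could be given. That change follows from removing the low scores. Without the rows assigned to LINC01426, 5 RUNX1 summits remained, of which 3 were in exons (60.0%). Counting UTRs, termination sites and non-coding exons as exons raised the exon share outside RUNX1 to 19.4% and changed no RUNX1 value. Merging summits under 200 bp apart and taking all summits inside the RUNX1 span changed no RUNX1 value. Omitting the summits of the chromosome 21 short arm, chosen after seeing the data, gave an exon share outside RUNX1 of 3.72%. The difference between the RUNX1 exon and intron medians was 54.0 under each alternative that gave it. Of these, only the omission of LINC01426 rows changed the set of RUNX1 summits, so the others could not move it. That omission removed an exon score above the exon median and an exon score below it. Depth per summit is unknown, so a missing summit, as in the introns downstream of the proximal start, does not show missing binding.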

Other observations

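Equal scores were common in the list. The 1986 summits had 1046 different scores, 61.5% of summits shared their score with another, and up to 23 shared 1 value. In RUNX1, the scores of the exon 1 and exon 9 summits occurred 1 time each in the list, whereas the intron 2 score of 20.0 was shared by 19 summits and the exon 2 score of 23.2 by 11. The equal scores of the RCAN1 and CLIC6 summits belong to a group of 21. Ranks near such values are shared as well, so small differences in rank among the lower RUNX1 summits carry little.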
